A study of Mus musculus with 2 samples.

Results

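Small chromosome domains, 60 to 120 kb long, were examined in immediate neuronal precursors of the mouse olfactory epithelium. A domain was taken as the interval between the midpoints of neighbouring boundaries on the same chromosome, on the 19 autosomes, and was called small at 120 kb or less. The small domains were thus chosen by the measured positions of boundaries. By this rule 348 of 7391 autosomal domains were small, and 4.71% of all autosomal domains is the share that every count of neighbours below is read against. The other 7043 domains are called longer domains. Immediate neuronal precursors are dividing cells that give rise to olfactory sensory neurons. They were sorted by fluorescence from untreated FVB/NTac pups of mixed sex carrying the Ngn1-GFP reporter, and DpnII was the enzyme that cut their chromatin for in situ Hi-C, a measure of chromosome contacts. The labels give 1 group, fixed in 1% formaldehyde, with biological replicates of 2200000 and 2100000 cells, so there was no second condition. The labels name no Cre line, deletion or treatment. How many animals went into a replicate, and how many cells of other types passed the sort, is not given in the sources used here, and without expression values the labelled cell type could not be checked.

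Boundaries are places where contacts between the sequences on either side are depleted, and a domain is the stretch between neighbouring boundaries within which contacts are more frequent. In mammalian cells many boundaries form where the ring complex cohesin, which extrudes DNA loops, is halted at the DNA-binding protein CTCF, most readily when CTCF motifs at the ends of a loop point toward each other. Boundaries also lie at active gene starts and at tRNA genes, which RNA polymerase III transcribes from promoter elements inside the gene.

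The boundaries used here were called by the authors on the contact matrix that combined both replicates, and each carries their score, with a higher score for stronger insulation. The class strong began at a score of 0.5 and the lowest score in the list was 0.2. Because the list is pooled, no value has a spread between replicates and the sequencing depth behind it is unknown. Values were therefore described without a test. The 95% intervals given for shares are Wilson intervals. They hold counting error alone and take domains or genes as independent. Neighbouring domains share a border, however, and genes of a family can share a domain. The density of gene starts, its ratio and the GC difference carry the SD over autosomes. The rule that picked small domains used boundary positions, so the scores of their borders come from the same readout and are descriptions. Genes and sequence were not used by the rule.

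Sequences at the borders of the small domains with the highest weaker border score are shown first, since they show which letters were searched for as a CTCF match. Capitals mark an exact match to the CTCF core consensus, and all sequences are from the GRCm38.p6 reference of RefSeq, read 5′ to 3′. Of the 6 small domains with the highest weaker border score, those around Krt8 and around Ppil1 had a match at both borders. The domain holding the keratin genes Krt8 and Krt18 (chr15:101977501-102077500) had a match on the plus strand at its left border (chr15:101977145-101977204) and one on the minus strand at its right border (chr15:102065798-102065857), so these point toward each other. Both stretches are intergenic. The domain of the splicing cyclophilin gene Ppil1 (chr17:29257501-29377500) had matches on the plus strand at both borders, in an intron of Ppil1 (chr17:29262433-29262492) and in an intron of Fgd2 (chr17:29371509-29371568).
Krt8 domain left border: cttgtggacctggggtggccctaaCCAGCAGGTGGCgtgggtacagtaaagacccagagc
Krt8 domain right border: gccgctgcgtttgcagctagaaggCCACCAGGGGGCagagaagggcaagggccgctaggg
Ppil1 domain left border: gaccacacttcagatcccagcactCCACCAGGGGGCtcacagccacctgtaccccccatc
Ppil1 domain right border: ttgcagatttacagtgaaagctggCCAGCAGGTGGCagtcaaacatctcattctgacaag
The match lay 0.326 kb and 11.7 kb from the border midpoints of the Krt8 domain and 4.96 kb and 5.96 kb from those of the Ppil1 domain. The border scores at these 4 places were 1.41, 0.856, 0.783 and 0.998.

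Genes for tRNAs are shown because many lay in a pair of small domains, a count that was chosen after its values had been seen. Capitals mark an exact match to the B box, the internal promoter element of tRNA genes, searched as GGTTCGA followed after any 2 bases by CC. The genes printed are the outermost of their domain, on the left or right, among those with a match. In the small domain chr13:23412501-23532500 these were a valine tRNA gene with the anticodon AAC (n-TVaac5, chr13:23413248-23413320, minus strand) and an arginine tRNA gene with the anticodon TCG (n-TRtcg1, chr13:23526456-23526528, minus strand). In the small domain chr11:69032501-69127500 it was, on the right, a leucine tRNA gene with the anticodon TAG (n-TLtag3, chr11:69124241-69124322, plus strand).
n-TVaac5: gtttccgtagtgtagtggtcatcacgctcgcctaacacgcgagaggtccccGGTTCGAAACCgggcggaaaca
n-TRtcg1: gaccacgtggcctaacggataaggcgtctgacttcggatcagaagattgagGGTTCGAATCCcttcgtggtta
n-TLtag3: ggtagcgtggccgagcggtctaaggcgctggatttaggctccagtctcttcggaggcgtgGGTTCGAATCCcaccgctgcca
The B box letters stood in 47 of 77 tRNA genes of small domains (61.0%), read on the strand of the gene, against 168 of 314 other autosomal tRNA genes (53.5%). Of 32851 RefSeq promoter windows of 300 bases, 0.122% held them on either strand.

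The 120 bases upstream of 2 gene starts in small domains are shown for their CpG content, which is in capitals. These genes were picked after their values had been seen. They are Yy1, whose product is a zinc finger factor that holds enhancers and promoters together (chr12:108792853-108792972, plus strand), and the epidermal keratin gene Krt10 (chr11:99389365-99389484, minus strand).
Yy1: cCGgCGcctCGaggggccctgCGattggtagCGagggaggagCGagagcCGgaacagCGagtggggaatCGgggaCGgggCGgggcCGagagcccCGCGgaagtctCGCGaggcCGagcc
Krt10: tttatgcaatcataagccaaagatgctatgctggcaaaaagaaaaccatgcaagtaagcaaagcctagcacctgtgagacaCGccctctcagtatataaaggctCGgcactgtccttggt
There were 17 CpGs upstream of Yy1 and 2 upstream of Krt10, with a GC content of 75% and 45%. CpG-rich starts are typical of widely used genes and CpG-poor starts of genes used in few tissues.

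Small domains were the short tail of a continuous range of lengths. Their median length was 110 kb, against 270 kb for longer domains. Together they covered 36.4 Mb, which is 1.53% of the sequence in domains, and all 348 lay in fully assembled sequence. The limit of 120 kb cut through this range. At exactly 120 kb there were 68 domains, with a median weaker border score of 0.284, 16.9 gene starts per Mb and 19.1% without a start. At 125 kb, the next length up, there were 79 domains with 0.280, 14.9 and 26.6%. Among the 120 kb domains the most starts lay in the domain of Hsd17b1, described below. There were 7 starts each in a domain on chromosome 11 with the olfactory receptor genes Olfr1378 and Olfr1377, in another with the histone variant gene H3f3b, Unk and the granule release gene Unc13d, and in the Phf1 domain on chromosome 17 described below. Among the 125 kb domains they lay in that of Cpsf7, which encodes a factor for RNA 3′ ends, with Sdhaf2 and Tmem216, in that of Pop7 with Gigyf1 and the erythropoietin gene Epo, and in that of Pip5kl1 with St6galnac4 and St6galnac6.

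**Figure D1:**
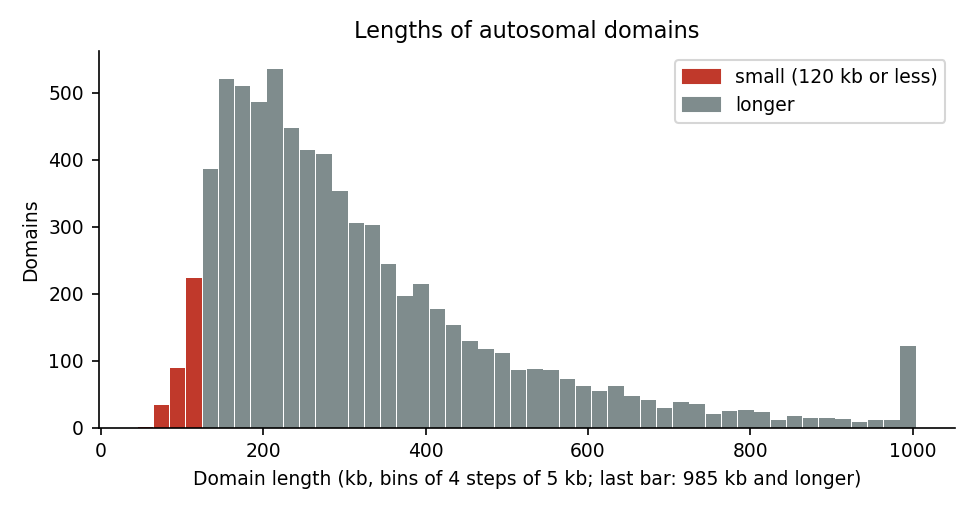
Number of autosomal domains (vertical axis) by length in kb (horizontal axis), in bins of 4 steps of 5 kb, with small domains in red and longer domains in grey, and domains of 985 kb and longer in the last bar. Small domains form the left edge of the distribution, with a median of 110 kb against 270 kb for longer domains.

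The shortest of all domains, 60 kb, was on chromosome 7 (chr7:38197501-38257500) and held only the start of Plekhf1, an endosome protein gene, 30.5 kb from its left border and 29.5 kb from its right. There were 6 domains of 65 kb, which held 1 to 5 starts, and the 2 with the highest weaker border score are named. That on chromosome 8 (chr8:80677501-80742500) held the start of Smarca5, the ISWI chromatin remodeller, 3.003 kb from its right border. That on chromosome 2 (chr2:152602501-152667500) held the defensin genes Defb36 and Defb25 and the small GTPase gene Rem1.

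Small domains held more gene starts per Mb than longer domains. A gene start is the transcription start site of a protein-coding gene in GENCODE M21. Small domains held 780 starts, or 21.4 per Mb, and longer domains 19820, or 8.46 per Mb, a ratio of 2.53 (SD over autosomes 0.61). Over the 19 autosomes the mean was 20.2 ± 6.55 per Mb in small domains and 8.54 ± 2.54 in longer domains (SD). It was higher in small domains on 18 autosomes, and on chromosome 3 it was lower, with 5.52 against 6.44 per Mb. The 780 genes are 3.75% of the 20807 autosomal protein-coding genes, and every gene list below is read against that share.

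The density of starts was lower in each longer length class, with 21.4 per Mb at 60 to 120 kb, 15.5 at 125 to 200 kb, 11.7 at 205 to 300 kb, 8.45 at 305 to 450 kb, 4.23 at 455 to 695 kb and 3.69 from 700 kb. Per domain the order was not the same, since a small domain held 2.24 starts on average, against 2.81 for a longer domain. No start was found in 61 small domains (17.5%, interval 13.9 to 21.9%), against 25.4% of longer domains (24.4 to 26.5%). The next classes were nearer, with 20.9% at 125 to 200 kb (19.2 to 22.8%) and 21.1% at 205 to 300 kb. The share was lower in small domains on 15 autosomes and higher on chromosomes 3, 9, 17 and 18. A single start was held by 103 small domains (29.6%), against 24.2% of longer domains, and 2 to 4 starts by 143 (41.1%), against 31.3%. There were 5 to 9 starts in 38 small domains (10.9%), against 13.5% of longer domains. Only 3 small domains (0.862%) held 10 or more, against 5.65% of longer domains, and the highest number was 11 in a small domain and 88 in a longer domain.

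Other gene classes were denser too. Starts of long noncoding RNA genes numbered 6.12 per Mb in small domains and 3.90 in longer domains, and those of miRNA genes 1.65 and 0.841. Exons covered 9.01% of small domains, against 3.78% of longer domains, and were higher on 18 autosomes, chromosome 3 being the exception. Gene bodies covered 54.7% of small domains and 41.3% of longer domains, but 54.6% of those of 125 to 200 kb. The GC content was 44.7% in small domains and 41.9% in longer domains, a difference of 2.80 points (SD over autosomes of the difference 1.22), and was higher in small domains on 19 of 19 autosomes. Repeat-masked sequence made up 29.95% of small domains and 33.4% of longer domains, lower in small domains on 16 autosomes and higher on chromosomes 3, 6 and 17.

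**Figure D2:**
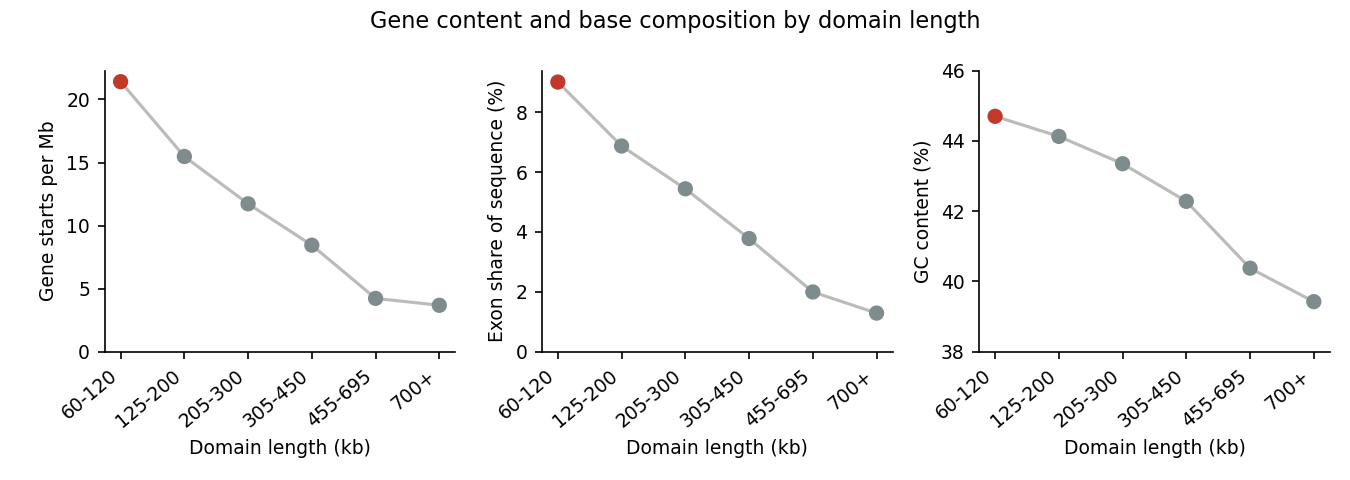
Protein-coding gene starts per Mb (left), exon share of the sequence in percent (middle) and GC content in percent on an axis from 38 to 46% (right), by domain length class in kb, with small domains in red and longer classes in grey. Each value is pooled over all domains of its class, and all 3 are highest in small domains, with 21.4 starts per Mb, 9.01% exons and 44.7% GC.

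The genes in small domains were shorter at the long end and more often had a CpG-rich start. Their median length was 16.1 kb, against 17.8 kb in longer domains, and 4.49% were longer than 100 kb, against 11.7%. A start was called CpG-rich when the 1500 bases around it had at least 50% GC and an observed over expected CpG ratio of at least 0.6. In small domains 360 of 780 starts were CpG-rich (46.2%, interval 42.7 to 49.7%), against 38.3% in longer domains (37.6 to 39.0%). Without olfactory and vomeronasal receptor genes these shares were 48.3% and 41.2%.

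Starts were densest next to the borders and also denser in the interior. Within 10 kb of the nearer border midpoint there were 33.8 starts per Mb in small domains and 19.999 in longer domains. From 10 to 20 kb there were 18.7 and 10.2, from 20 to 30 kb 19.97 and 10.4, from 30 to 40 kb 17.99 and 10.2, from 40 to 50 kb 17.9 and 10.5, and from 50 to 60 kb 16.9 and 9.82. With the sequence within 10 kb of borders left out, the ratio of small to longer domains was 2.40. Of the 235 starts within 10 kb of a border of a small domain, 135 ran inward, into the domain (57.4%, interval 51.1 to 63.6%), against 53.8% in longer domains (51.9 to 55.6%).

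**Figure D3:**
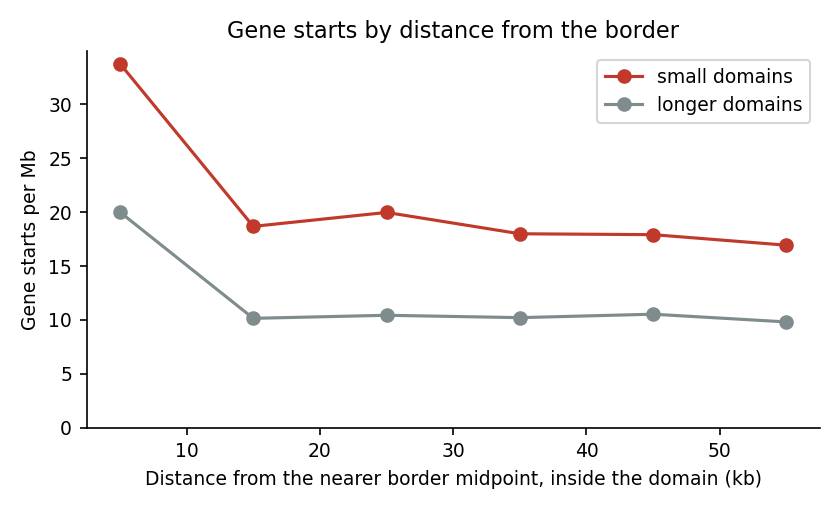
Protein-coding gene starts per Mb (vertical axis) by distance inside the domain from the nearer border midpoint in kb (horizontal axis), with small domains in red and longer domains in grey, points at the middle of 10 kb steps. Both lines are highest in the step next to the border, at 33.8 and 19.999 per Mb, and the line of small domains lies above in each step.

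The small domains with the most starts were on chromosomes 17, 11, 6 and 7. The domain chr17:35817501-35922500 held 11, among them Ier3, an immediate early response gene, Flot1, which encodes a raft protein, the β-tubulin gene Tubb5, the DNA damage mediator gene Mdc1 and Nrm, a nuclear envelope protein gene. Its border scores were 0.648 on the left and 0.325 on the right. The domain chr17:34557501-34652500 also held 11, among them the receptor gene Notch4, Gpsm3, which encodes a regulator of G proteins, the homeodomain gene Pbx2, the receptor gene Ager and the ubiquitin ligase gene Rnf5, between borders of 0.970 and 0.310. In both domains the left border was strong and the right border weak.

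The domain chr11:101072501-101192500 held 10 starts, including the steroid dehydrogenase gene Hsd17b1, the coenzyme A synthase gene Coasy, Mlx, a partner of sugar-sensing transcription factors, the meiotic recombination gene Psmc3ip and Retreg3. There were 9 starts in chr6:48537501-48647500, among them the proton pump gene Atp6v0e2, Lrrc61, the chemerin gene Rarres2 and the zinc finger genes Repin1 and Zfp775. The start of Atp6v0e2 lay 0.115 kb from the left border. The domain chr17:35167501-35247500, 80 kb long, held 9 as well, including the microglial gene Aif1, Lst1 and the cytokine genes Ltb, Tnf and Lta, between borders of 0.238 and 1.52. The domain chr7:140077501-140187500 held 9, among them Caly, Prap1, the fucose mutarotase gene Fuom, the polyamine oxidase gene Paox and Echs1, which encodes an enzyme of fatty acid breakdown.

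The 61 small domains without a protein-coding start differed from the rest in composition. Their GC content was 40.7% and 36.4% of their sequence was masked, while small domains with 1 start had 44.0% and 28.5%, those with 2 to 4 starts 45.7% and 29.0%, and those with 5 or more 48.8% and 27.1%. Of the 61, 19 held the start of a long noncoding RNA gene, 10 lay inside a protein-coding gene and 40 had no overlap with a protein-coding gene body. Neither border was strong in 31 of the 61 (50.8%), against 27 of 103 (26.2%) with 1 start, 41 of 143 (28.7%) with 2 to 4 starts and 8 of 41 (19.5%) with 5 or more.

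Lying inside a gene was about as frequent in both classes of domain. In all, 14 small domains lay wholly inside a protein-coding gene (4.02%, interval 2.41 to 6.64%), against 4.33% of longer domains (3.88 to 4.83%). They had 12 host genes with a median length of 425 kb. The hosts included Pkhd1, the microtubule plus-end gene Clasp1, Dennd1a, Auts2, Frmd4b, Disc1, the adenosine kinase gene Adk, Arhgap26, the potassium channel gene Kcnn2, Ccdc192 and the gene model Gm20388. Gm20388 is annotated over 4435 kb, spans other genes and hosted 3 of the domains. The highest weaker border scores among the 14 were those in Kcnn2 (0.613 on the left and 0.507 on the right), in Gm20388 around Zfpm1, Trhr2 and Zc3h18 (0.413 and 0.662), in Gm20388 around Rpl13, Cpne7 and Sult5a1 (0.988 and 0.409), in Arhgap26 (0.387 and 0.551) and in Disc1 (0.381 and 0.828). The domain in Arhgap26 also held the start of the growth factor gene Fgf1.

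A small domain typically had a weaker border below the strong class and a stronger border above it. The weaker border had a median score of 0.263 in small domains (quartiles 0.226 and 0.327), against 0.351 in longer domains (0.256 and 0.556), and was lower in small domains on 19 of 19 autosomes. The highest weaker score was 0.856 in a small domain and 1.62 in a longer domain. The stronger border had a median of 0.676 in small domains, against 0.870 in longer domains, lower on 18 autosomes and higher on chromosome 14 (0.908 against 0.778).

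Both borders were strong in 16 small domains (4.60%, interval 2.85 to 7.34%), against 29.9% of longer domains (28.9 to 31.0%). A single border was strong in 225 small domains (64.7%), against 49.6% of longer domains, and neither in 107 (30.7%), against 20.5%. Having neither border strong was not particular to small domains. Its share was 20.1% at 125 to 200 kb, 16.9% at 205 to 300 kb and 18.4% at 305 to 450 kb. It was 28.9% at 455 to 695 kb and 31.0% from 700 kb. The 348 small domains had 674 distinct borders, since 22 boundaries lay between 2 small domains. Of these borders 252 were strong (37.4%, interval 33.8 to 41.1%), against 53.9% of all 7410 autosomal boundaries and 55.6% of the 6736 boundaries that bordered no small domain. Their median score was 0.376, against 0.569. Set beside the next boundary outward, borders of small domains had a median of 0.373, against 0.598 for that boundary, and the border of the small domain had the lower score in 429 of 695 cases (61.7%).

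**Figure D4:**
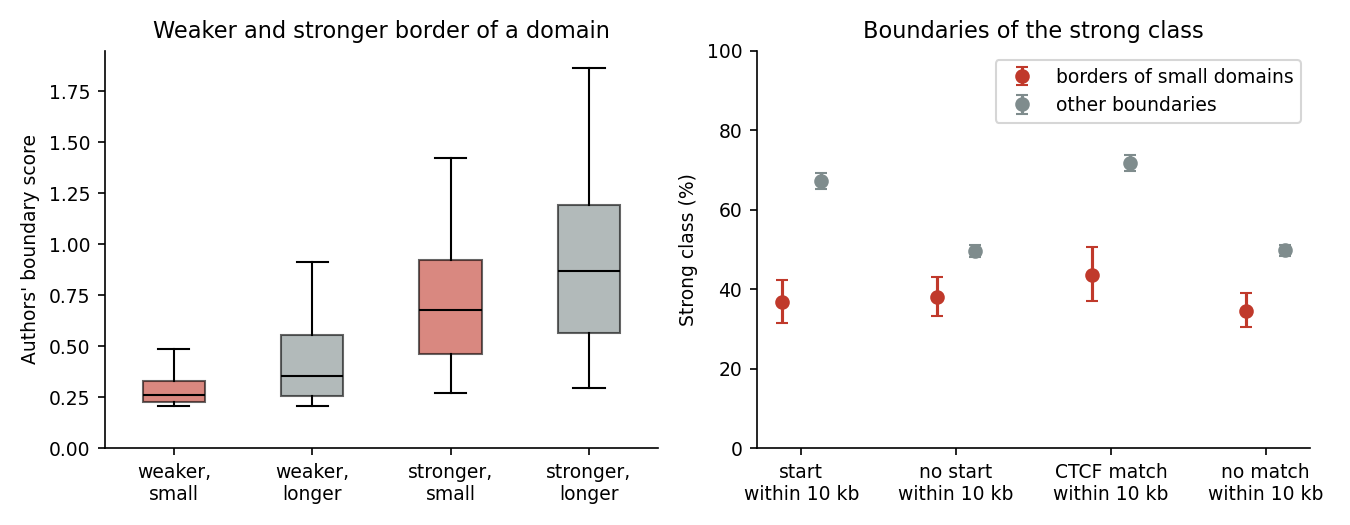
Left, the authors' boundary score (vertical axis) of the weaker and the stronger border of small (red) and longer (grey) domains, as medians with quartile boxes and whiskers from the 5th to the 95th percentile. Right, the share of boundaries in the strong class in percent with Wilson 95% intervals, for borders of small domains (red) and other boundaries (grey), by gene start or CTCF match within 10 kb; the red points lie between 34.6% and 43.7% and the grey points between 49.6% and 71.8%.

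The 6 small domains with the highest weaker border score included the 2 whose border sequences are shown above. That of the keratin genes Krt8 and Krt18, which form the filaments of simple epithelia, and of the translation initiation factor gene Eif4b had scores of 1.41 and 0.856. The start of Eif4b was 3.73 kb from its right border, while those of Krt8 and Krt18 lay 27.0 and 50.7 kb from its left border. The Ppil1 domain, which also held BC004004 and the peptidase inhibitor gene Pi16, had scores of 0.783 and 0.998, and Ppil1 started 6.69 kb from its left border.

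Others of the 6 lay on chromosomes 8, 4 and 6. The domain chr8:79637501-79732500 held the deubiquitinase gene Otud4, the ribosome recycling gene Abce1 and the mitotic ubiquitin ligase gene Anapc10, with scores of 1.24 and 0.778. The start of Otud4 was 2.12 kb from its left border, and those of Abce1 and Anapc10 were next to each other on opposite strands, 20.8 and 20.7 kb from its right border. The domain chr4:140962501-141077500 held the lysosomal transporter gene Atp13a2, the microfibril gene Mfap2 and the ciliary rootlet gene Crocc, with scores of 0.743 and 1.38. The domain chr6:128752501-128852500 held the natural killer cell receptor genes Klrb1c and Klrb1b, with scores of 0.664 and 1.17.

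Borders of small domains were more often near a gene start than other boundaries, and the score of the border differed little with it. A border was counted as near a start when its 5 kb interval, extended by 10 kb on each side, held one. This was so for 308 of 674 borders of small domains (45.7%, interval 42.0 to 49.5%), against 34.9% of the borders of longer domains, among which most borders of small domains are also counted. Over all autosomal boundaries the share was 35%, and over all assembled autosomal bins of 5 kb it was 17.2%. The share was higher for small domains on 17 autosomes and lower on chromosomes 3 and 5. Both borders were near a start in 26.4% of small domains (22.1 to 31.3%), against 15.7% of longer domains (14.9 to 16.6%). Domains of 125 to 200 kb came close, with 41.3% of borders near a start (39.6 to 43.0%). Both of their borders were near one in 22.2% (20.4 to 24.1%).

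Among borders of small domains, 36.7% of those near a start were strong (interval 31.5 to 42.2%), against 37.98% of those with none (33.2 to 43.1%), and their median scores were 0.373 and 0.376. Among the boundaries that bordered no small domain, 67.3% of those near a start were strong (65.3 to 69.2%), against 49.6% of those with none (48.1 to 51.02%), with median scores of 0.689 and 0.493. Whether the difference between the 2 kinds of boundary exceeds chance was not tested.

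CTCF matches were slightly more frequent at the borders of small domains, but not on all chromosomes nor at a shorter length limit. An exact match to the CTCF core consensus, on either strand, within the same extended interval was found at 206 of 674 borders of small domains (30.6%, interval 27.2 to 34.1%), against 26.6% of the borders of longer domains (25.6 to 27.6%). The share over all autosomal boundaries was 26.7%, and over all 5 kb bins it was 11.3%. It was higher for small domains on 10 of 19 autosomes and lower on 9. At a limit of 100 kb the order turned, with matches at 25.9% of borders of small domains, but the interval (20.8 to 31.7%) includes the 26.7%. Domains of 125 to 200 kb had matches at 30.1% of borders. Both borders had a match in 13.2% of small domains (10.1 to 17.2%), against 8.79% of longer domains (8.15 to 9.47%). With a match 43.7% of borders of small domains were strong, against 34.6% with none, and for boundaries that bordered no small domain the shares were 71.8% and 49.8%.

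Matches pointing toward each other, or away from each other, were about as frequent in both classes of domain. In 10 small domains (2.87%, interval 1.57 to 5.21%) the left border had a match on the plus strand and the right border a match on the minus strand, pointing inward as in the Krt8 sequences above, against 2.73% of longer domains. The opposite arrangement was found in 11 small domains (3.16%), against 3.11% of longer domains. Of the 194 borders of small domains with matches on a single strand, 96 pointed inward (49.5%, interval 42.5 to 56.5%). Longer domains give no comparison here. A boundary between 2 of them counts as inward for one and outward for the other, which fixes their share near 50%. A match is a description of letters and was not tested as a bound site.

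The share of small domains among the neighbours of small domains was close to their share of all domains. Small domains had 695 adjoining places, to the left or right, where a domain next to 2 small domains counts for both. Small domains took 44 of these places (6.33%, interval 4.75 to 8.39%), against 4.71% of all domains. Each adjoining pair is counted from both sides, so this interval is too narrow. Its lower end lies just above the 4.71%, so an excess over that share is not established. At 2 domains away the share was 7.25%, at 3 it was 5.23%, at 4 it was 4.38% and at 5 it was 4.98%. There were 326 runs, of which 307 were a single small domain, 16 were pairs and 3 were triples, and 41 of the 348 small domains (11.8%) lay in pairs or triples. At a limit of 100 kb 0.810% of 247 neighbours were small, against 1.68% of all domains. This order is the reverse, but the interval (0.222 to 2.90%) includes the 1.68%. At 150 kb the share was 19.5%, against 13.4%.

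The triples were on chromosomes 17, 15 and 11. That on chromosome 17 (26787501 to 27132500) began with a domain holding only the cardiac homeobox gene Nkx2-5, in its middle (57.5 kb from either border). The next domain held Kifc5b, the chromatin gene Phf1, Cuta and Zbtb9, and the last held the cell death gene Bak1 and the calcium release channel gene Itpr3. The 4 borders scored 0.262, 0.880, 0.205 and 0.282, so a single border of the triple was strong.

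The triple on chromosome 15 (99477501 to 99792500) divided the aquaporin genes. The water channel gene Aqp2 lay with Faim2, an inhibitor of cell death, in the first domain, and its neighbours Aqp5 and Aqp6 lay in the second with Racgap1, a gene of cell division, the acid-sensing channel gene Asic1 and the chromatin remodeller gene Smarcd1. The start of Aqp2 was 8.45 kb and that of Aqp5 3.28 kb from the border between them, which scored 0.241. The third domain held Gpd1, Cox14 and the ceramide synthase gene Cers5. The 4 borders scored 0.497, 0.241, 0.410 and 0.271, all in the weak class.

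The triple on chromosome 11 (3337501 to 3647500) also had 4 weak borders, with scores of 0.233, 0.209, 0.499 and 0.205. It held the kinase gene Limk2 and the ubiquitin ligase gene Rnf185, then Pla2g3, Inpp5j and the selenoprotein gene Selenom, then the smooth muscle gene Smtn. The start of Rnf185 was 0.137 kb from a border. With the border scores averaged over the domains of a pair, so that the shared border counts for both domains, the highest mean was that of a pair on chromosome 6. It joined the Klrb1c domain above to a domain with the lectin receptor genes Clec2h and Klrb1 (128632501 to 128852500), with borders of 0.308, 0.664 and 1.17. The next by this measure was on chromosome 1 (135147501 to 135382500), with Gpr37l1 and the epithelial factor gene Elf3 in the left domain and Rnpep, the mitochondrial import gene Timm17a, Lmod1 and Shisa4 in the right domain, and borders of 1.28, 0.231 and 0.851.

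On a larger scale small domains were more frequent where genes were dense. Their share of the domains of an autosome was between 2.37% on chromosome 13 (8 domains) and 8.28% on chromosome 17 (24 domains). Over the 19 autosomes this share correlated with gene starts per Mb (Pearson r = 0.533, Spearman rho = 0.437) and with GC content (r = 0.599, rho = 0.567), given as a description because chromosomes share the list and both measures vary together along the genome. Among 499 windows of 5 Mb, 264 held no small domain, 154 held 1, 61 held 2, 11 held 3, 6 held 4 and 3 held 5. The 3 richest windows were on chromosome 11 from 95 to 100 Mb, which held 170 gene starts, and on chromosome 17 from 25 to 30 Mb and from 35 to 40 Mb, with 142 and 138. With windows ordered by gene starts into 4 groups of nearly equal size, small domains made up 2.82, 3.41, 4.82 and 6.82% of the domains in them. The centres of successive small domains were a median of 3.81 Mb apart (quartiles 1.31 and 7.96 Mb), and 68 of 329 distances (20.7%) were under 1 Mb. The 629 longer domains next to a small domain held 12.7 gene starts per Mb and were a median of 250 kb long, against 8.08 per Mb and 275 kb for the 6414 other longer domains.

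**Figure D5:**
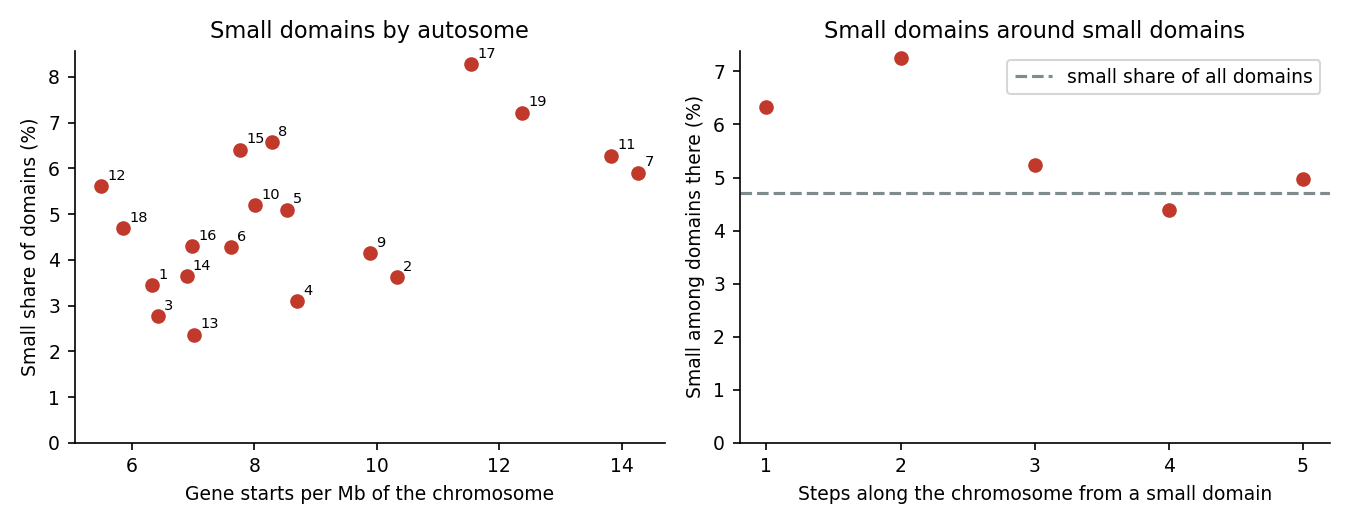
Left, small domains as a percentage of the domains of each autosome (vertical axis) against protein-coding gene starts per Mb of the chromosome (horizontal axis), with a labelled point per autosome. Right, the percentage of small domains among the domains 1 to 5 steps from a small domain (red points), against their share of all domains (dashed line, 4.71%); the points lie between 4.38% and 7.25%.

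Genes for tRNAs were denser in small domains, although most lay in longer domains. Of 386 tRNA genes in autosomal domains, 77 (19.9%) lay in small domains, or 2.11 per Mb, against 0.132 per Mb in longer domains, a ratio of 16.0. They lay in 12 small domains (3.45%, interval 1.98 to 5.93%), against 111 longer domains (1.58%, 1.31 to 1.89%). In both classes a few domains held many of them. Without the 2 richest domains of each class, 27 of the 77 were left in small domains and 227 of 309 in longer domains. The density rests largely on 2 small domains. Without them the ratio was 5.66, and without the 2 domains with most tRNA genes in each class it was 7.70.

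The domain chr13:23412501-23532500 held 32 tRNA genes, most often for tyrosine (6) and arginine (4), together with the ribosome assembly gene Abt1, the butyrophilin genes Btn1a1 and Btn2a2 and the histone gene Hist1h4h. Both of its borders were strong (0.880 and 0.644), and the n-TVaac5 and n-TRtcg1 genes printed above lay 0.784 kb and 6.01 kb inside its left and right border. The domain chr11:69032501-69127500 held 18 tRNA genes, most often for serine (3) and threonine (3), with the mitotic kinase gene Aurkb, the vesicle fusion gene Vamp2, the clock gene Per1 and the segmentation clock gene Hes7. Its borders were strong too (0.898 and 0.514), with n-TLtag3 lying 3.22 kb inside the right border. There were 8 tRNA genes in a domain on chromosome 19 with Patl1 and Osbp, and 8 in a domain on chromosome 11 with Rack1, Trim41 and Trim7. The other 8 domains held 1 or 2 each. The genes named in this paragraph were chosen after the tRNA counts had been seen, apart from Aurkb and Hist1h4h.

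Of 20 gene lists, 10 had a larger share of members in small domains than the 3.75% of all autosomal protein-coding genes, with 1 to 6 members there each. Among genes of nuclear architecture 5 of 30 started in small domains (16.7%, interval 7.34 to 33.6%), each in a domain of its own. They are the cohesin subunit gene Rad21, the cohesin loader gene Nipbl, Yy1, the chromatin organiser gene Satb1 and the lamin gene Lmnb2. Yy1 started 0.473 kb from the left border of its domain, whose borders scored 0.302 at the weaker and 0.817 at the stronger, and Nipbl 3.04 kb from the right border of a 75 kb domain (0.296 and 0.815). Rad21, Satb1 and Lmnb2 started 24.2 to 25.8 kb from the nearer border, and both borders of their domains were weak. All 5 starts were CpG-rich, as in the Yy1 sequence above. Nipbl, Rad21 and Satb1 were each the only protein-coding start of their domain.

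Of 28 regulators of the precursor state 2 started in a small domain (7.14%, interval 1.98 to 22.6%), against 3.75% of all autosomal protein-coding genes. The interval includes the 3.75%. At a limit of 100 kb it was 0 of 28, against 1.28% of all genes, so the order turned. At 150 kb it was 14.3%, against 10.8%. Ebf3, an Olf/Ebf factor of olfactory neurons, was the only start of a 120 kb domain, 8.06 kb from its right border, between scores of 0.633 and 1.84, and this was among the 16 small domains with strong borders on both sides. Top2a, the topoisomerase gene of dividing cells, started 3.31 kb from the right border of a 115 kb domain, with weak borders (0.342 and 0.485) and 3 starts. Genes of the cell cycle and replication were there in 5 of 59 cases (8.47%, interval 3.67 to 18.4%). They were Aurkb in the domain with 18 tRNA genes, the primase gene Prim1, the helicase gene Gins4, the origin recognition gene Orc5 and the nucleotide reductase gene Rrm2. Prim1 and Rrm2 started 2.33 and 4.26 kb from a border, and Aurkb, Gins4 and Orc5 more than 10 kb from either border.

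Markers of other stages and cells were found in small domains in numbers of 0 to 2. Of 23 immature neuron markers, only the microtubule gene Stmn4 started there (4.35%, interval 0.772 to 20.99%), and of 23 mature neuron markers the olfactory channel gene Cngb1 and Faim2 did (8.70%, interval 2.42 to 26.8%). Of 21 sustentacular, gland and microvillar markers only Aqp5 did (4.76%, interval 0.846 to 22.7%), and of 19 immune, endothelial, stromal and glial markers only Aif1 (5.26%, interval 0.935 to 24.6%). These 4 shares lay above the 3.75% of all genes, with intervals that include it. None of 15 horizontal basal cell markers started in a small domain (0, interval up to 20.4%). No axon guidance gene started in a small domain (0 of 66, interval up to 5.50%).

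Genes of the ribosome lay in small domains in small numbers. Of 81 cytosolic ribosomal protein genes 5 started there (6.17%, interval 2.67 to 13.6%), among them Rps14 (0.494 at the weaker and 0.945 at the stronger border), Rpl13 (0.409 and 0.988), Rpsa (0.318 and 0.551) and Rps10 (0.318 and 1.93). Rpl13 and Rps10 started 4.85 and 5.83 kb from a border. Of 78 mitochondrial ribosomal protein genes 6 did (7.69%, interval 3.57 to 15.8%), with Mrpl35, Mrps18b, Mrps18a and Mrpl10 named by the weaker score of their domain (0.373, 0.325, 0.311 and 0.255). The start of Mrpl10 was 0.940 kb from a border of a 65 kb domain. Of 84 respiratory chain and ATP synthase genes Ndufa6 alone started in a small domain (1.19%, interval 0.210 to 6.44%). Of 48 proteasome genes the proteasome activator gene Psme4 alone did (2.08%, interval 0.369 to 10.9%). Of 67 replication-dependent histone genes Hist1h4h alone did (1.49%, interval 0.264 to 7.98%). All of these intervals include the 3.75% of all genes.

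Of 1128 olfactory receptor genes 31 started in small domains (2.75%, interval 1.94 to 3.87%, which includes the 3.75% of all genes), in 7 domains, and at a limit of 100 kb the share was 1.51%, against 1.28% of all genes, so the order turned. Since the 31 genes lay in 7 domains, the interval is too narrow. None of the 31 starts was CpG-rich. Adjoining small domains on chromosome 7 (103617501 to 103802500) held 4 and 7 receptor genes, Olfr622 to Olfr625-ps1 and Olfr243 to Olfr67, and the border between them scored 0.246. The receptor genes named by the highest weaker border score were Olfr1097, Olfr1098 and Olfr1099 in a domain on chromosome 2 (0.302 and 0.492) and Olfr1375 in the domain of Olfr1378 (0.255 and 0.457). Of 327 vomeronasal receptor genes 3 (0.917%, interval 0.312 to 2.66%) and of 385 Zfp genes, most of which encode zinc finger proteins, 8 (2.08%, interval 1.06 to 4.05%) started in small domains. No Hox gene (0 of 39, interval up to 8.97%) and no clustered protocadherin gene (0 of 57, interval up to 6.31%) did.

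Keratin genes were in 2 small domains of contrasting borders. Of 53 keratin genes 6 started there (11.3%, interval 5.29 to 22.6%). The interval takes these genes as independent and is too narrow, since they lay in 2 domains. Krt8 and Krt18 were in the domain with the highest weaker border score of all small domains (0.856). Krt28, Krt10, Krt12 and Krt20 shared a 95 kb domain on chromosome 11 with weak borders of nearly equal score (0.285 and 0.286). None of these 6 starts was CpG-rich, as the Krt10 sequence above shows for one of them.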

How the data were processed

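In situ Hi-C boundaries from 2 replicates of 1 group were analysed. The deposited list gives for each 5 kb interval the authors' class and score. Boundaries were called after the contacts of both replicates had been merged, per the series' design text, on GRCm38, per the submitters' processing notes. Which caller was used, with which window and cutoffs, is not given in the sources used here. Pooling hides the spread between replicates and the depth, so the precision of a score is unknown. Contact matrices and signal tracks were not analysed here, and 0 columns of values were left unmapped.

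Domains were built from boundary midpoints. Protein-coding starts were the 5′ ends of GENCODE M21 gene models, so alternative starts entered only as an alternative. Sequence was GRCm38.p6, whose strain differs from that of the mice, and tRNA genes and promoters were from RefSeq tables of that assembly. CTCF matches were exact, on both strands. Bins had to be at least 50% assembled. Python 3.11.15, pandas 2.3.3, numpy 2.4.6, scipy 1.17.1 and pysam 0.24.0 were used, and the domain and density steps were tested on simulated data.

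No test was run, since there is 1 group and the list is pooled. The members, the gene lists and the rules were chosen with earlier results of these data known. Genes were named as those of the 6 small domains with most starts, the 6 with the highest weaker border score, the 5 longest runs, up to 4 members of each list by weaker border score, the 3 shortest domains (ties by the weaker border score), the 5 best-bordered domains inside a gene and the 3 with most starts on either side of the length limit. Genes whose names begin with Gm or end in Rik were passed over where another could be named. Some genes and sequences that these rules name are not reported here. Alternatives were length limits of 100 and 150 kb, strong boundaries alone, merging of boundaries closer than 50 kb, chromosome X, assembled sequence of at least 90%, other gene sets, distances and a looser motif.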

Additional observations from a re-analysis of the deposited data

How the results depend on the processing

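No direction between small and longer domains in gene starts per Mb, GC content or weaker border score turned under the alternatives run. At a limit of 100 kb there were 124 small domains. Of their neighbours 0.810% were small (interval 0.222 to 2.90%), against 1.68% of all domains. Of their borders 25.9% had a CTCF match (20.8 to 31.7%), against 26.7% of all boundaries. Both orders turned, but each interval includes the share it is set against. At 150 kb there were 992 small domains, with a median weaker border score of 0.288, 44.6% strong borders and 19.5% small neighbours. The share of small neighbours follows in part from construction, since the limit sets how many domains are small. At 150 kb 13.4% of all domains were small. With strong boundaries alone 16 remained small, with a ratio of gene starts per Mb of 3.22. Of these 6.25% were without a start (interval 1.11 to 28.3%), against 5.81% of longer domains. That order turned, but the interval includes the 5.81%. The GC difference was 5.09 points, CTCF matches were at 37.5% of borders and 0 of 32 neighbours were small. Counting starts of every transcript, 50% of borders were near a start, and inside the bare 5 kb interval 15.6%. CTCF matches inside the bare interval were at 9.20% of borders (2.48% of all bins), and a looser form of the consensus with any base at 4 positions was at 84.0% (65.1% of all bins). The tRNA ratio of 16.0 was 5.66 without the 2 small domains with most tRNA genes and 7.70 without the 2 of each class, alternatives chosen after seeing the data. The number of gene lists above the share of all genes was 10, and it was 8 at 100 kb and 9 at 150 kb. At 100 kb precursor regulators, cytosolic ribosomal protein genes and sustentacular, gland and microvillar markers fell below it. Olfactory receptor genes rose above it there. At 150 kb immature neuron markers and sustentacular, gland and microvillar markers fell below it, and clustered protocadherin genes rose above it. Merging boundaries closer than 50 kb changed nothing, since no domain was shorter than 60 kb. With chromosome X there were 366 small domains. No paired analysis was possible because the list was called on both replicates combined, which also leaves no replicate to leave out. Scores with strong boundaries alone are bound by the selection and were not compared.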
